A study of Mus musculus with 6 samples.

Results

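The genes described are 10 regulators and markers of the step from progenitor to differentiating spermatogonia, chosen by name: Kit, Dmrt1, Sohlh1, Sohlh2, Neurog3, Sox3, Dmrtb1, Lmo1, Prss50 and Ly6k. Of these, 9 were read from the table of 22579 genes, and all 9 passed the filter on low counts that left 14766 genes for testing. Neurog3 was not analysed here. RNA was counted in 6 libraries, each of about 1000 THY1-positive spermatogonia taken at day 4. The 3 control libraries carry the genotype label Control and the 3 knockout libraries the label Ddx20 knockout, also shortened to cKO. The sources used here do not give the line that drove the deletion or the cells in which it acted, nor any further allele or agent for either group.

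Spermatogonia of the young testis pass from stem cells that depend on GDNF, a factor from Sertoli cells, through progenitors to differentiating cells. The last step is driven by retinoic acid and is marked by the receptor tyrosine kinase KIT, whose ligand is made by Sertoli cells. SOHLH1 and SOHLH2 are germ cell transcription factors of the basic helix-loop-helix class that are needed for differentiation and for Kit expression. DMRT1 is a transcription factor with a DM-type zinc finger that keeps spermatogonia in the mitotic programme, and DMRTB1, also called DMRT6, is a relative that acts at the end of it. THY1, the surface protein used to enrich the cells, is typical of undifferentiated spermatogonia.

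The libraries held 8428871 to 12497967 counted reads. Ddx20, the targeted gene, was counted at 668, 383 and 531 reads in controls against 128, 168 and 119 in knockouts, and fell by 1.89 ± 0.26 (SE) on the log2 scale (edgeR adjusted p 0.0118). Mitochondrially encoded transcripts took 14.0% to 16.9% of reads in controls and 19.8% to 20.1% in knockouts. Knockout 1 and knockout 2 stood apart as a pair: a chi-square comparison of their counts averaged 1.78 per gene, against 12 to 104 for the other 14 pairs. They may not be independent, so values with this pair counted as 1 library stand beside the calls. Knockout 3 stood at 12 and 12.3 against knockout 1 and 2, and pairs of controls at 28 to 53.9, so the spread differed between the groups. Control 2 was nearer to each knockout (35.5 to 40.1) than to control 1 (53.9). Nothing in the labels ties a library to an animal, so p-values measure only how far these samples differ, which may be technical spread.

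Of the 9 genes, 4 changed in the knockouts: Kit and Dmrt1 fell, and Lmo1 and Prss50 rose. Ly6k, Dmrtb1, Sox3, Sohlh1 and Sohlh2 did not pass the test. Among all genes tested 4.83% were called, which is 713 genes at a Benjamini-Hochberg adjusted p under 0.05 by the edgeR quasi-likelihood test (2.03% called higher and 2.8% lower). DESeq2 and limma-voom called the same number, 4 of the 9, against 11.1% and 19.5% of all genes. At an unadjusted p under 0.05 there were 5 of the 9 by edgeR, against 24.1%. The genes were listed with such results known, so their share against this background is a description. In 6 of the 9 genes the 3 knockout libraries and the 3 control libraries did not overlap, against 32.6% of all genes tested. These were 4 genes higher in knockouts (16.8% of all genes) and 2 lower (15.8%). When knockout 1 and 2 were treated as 1 library, edgeR called none of the 9 and 0.00649% of all genes. In that setting DESeq2 called Kit and Dmrt1, against 3.02% of all genes, and limma-voom called Kit, Dmrt1 and Lmo1, against 3.28%.

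**Figure D1:**
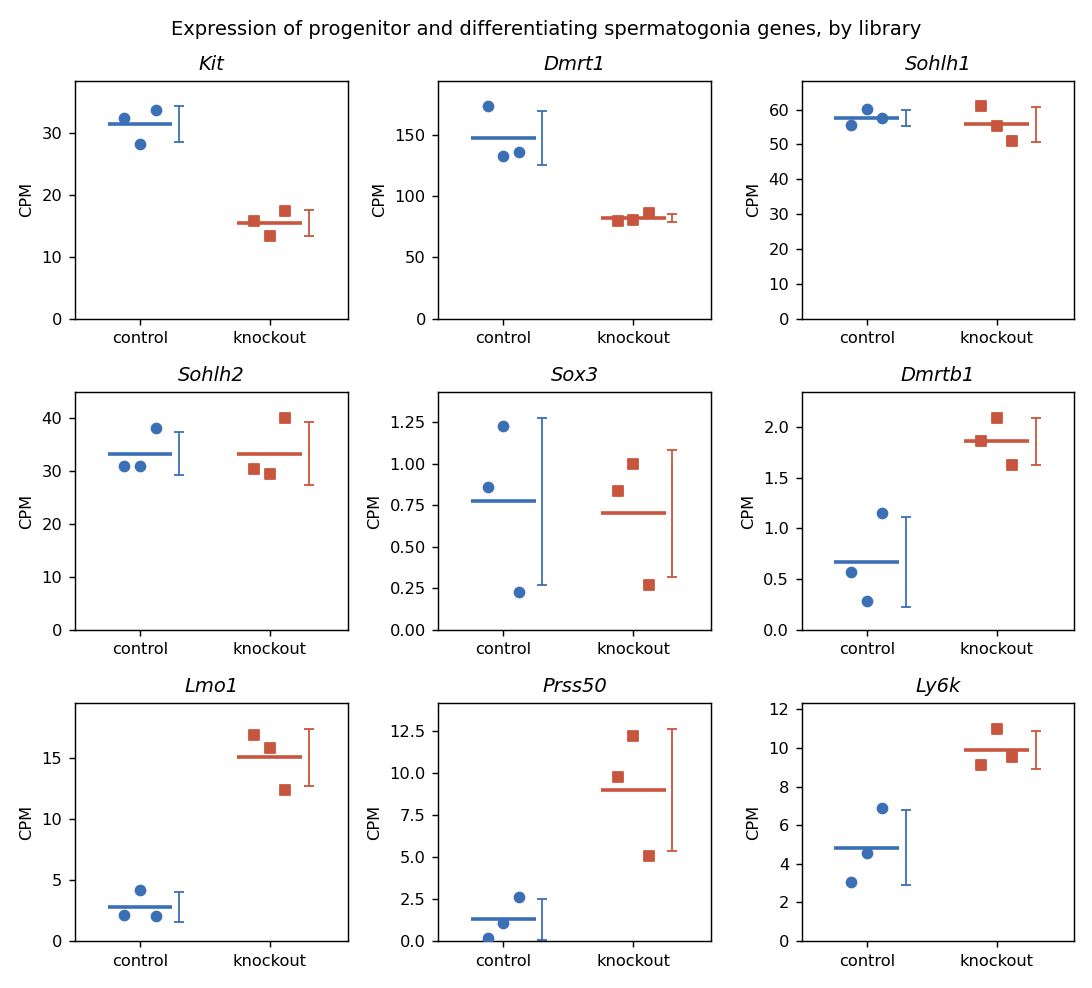
Expression of the 9 genes in each library, in CPM (read counts scaled to TMM-adjusted library size), on linear axes that start at 0. Points are libraries, horizontal lines are means and side bars are ± SD over 3 libraries. Kit stood at 28.3 to 33.7 CPM in controls and 13.3 to 17.5 in knockouts, while Sohlh1 and Sohlh2 overlapped between the groups.

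Kit, the receptor gene that marks differentiating spermatogonia, was about 2-fold lower in the knockouts. The gene (ENSMUSG00000005672) is found on the plus strand of chromosome 5, from 75574916 to 75656722 (mm10). Its reads numbered 340, 298 and 439 in controls and 170, 147 and 194 in knockouts. Every knockout library was below every control library. As CPM, the read count scaled to a TMM-adjusted library size, the values were 32.5, 28.3 and 33.7 in controls and 15.8, 13.3 and 17.5 in knockouts. The means were 31.5 ± 2.82 and 15.5 ± 2.08 CPM (SD, n = 3 per group), which is 2.03-fold lower. By edgeR the log2 fold change was −1.02 ± 0.21 (SE), with a 95% interval of −1.47 to −0.57 and an adjusted p of 0.0269. Leaving out control 2 ended the call (edgeR adjusted p 0.0545), as did leaving out knockout 1, 2 or 3 (0.161, 0.178 and 0.0737). With knockout 1 and 2 as 1 library the adjusted p was 0.169 by edgeR, 0.0465 by DESeq2 and 0.048 by limma-voom. In bulk samples fewer cells that express a gene and less RNA per cell cannot be told apart.

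Dmrt1 fell to a similar degree. The gene (ENSMUSG00000024837) lies on chromosome 19 at 25505618 to 25604329, on the plus strand. Its counts, the deepest among the 9 genes, were 1815, 1402 and 1769 reads in controls and 855, 890 and 955 in knockouts. This was 173, 133 and 136 CPM in controls and 79.5, 80.7 and 86.0 CPM in knockouts. The knockout values lay close together, and the lowest control was well above the highest knockout. The control mean was 147 ± 22.6 CPM and the knockout mean 82.1 ± 3.44 CPM (SD, n = 3 each), which is 1.8-fold lower. On the log2 scale the change was −0.84 ± 0.16 (SE), with a 95% interval of −1.19 to −0.50 (edgeR adjusted p 0.0214). Without control 2 the edgeR adjusted p was 0.0505, and without knockout 1, 2 or 3 it was 0.145, 0.143 and 0.0758. With knockout 1 and 2 as 1 library it was 0.147 by edgeR, 0.0157 by DESeq2 and 0.0244 by limma-voom.

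Sohlh1 and Sohlh2, which act upstream of Kit, did not pass the test, and their intervals were narrow. Sohlh1 (ENSMUSG00000059625, chromosome 2 at 25842995 to 25847248, minus strand) stood at 55.5, 60.1 and 57.6 CPM in controls and 60.9, 55.3 and 51.1 CPM in knockouts. The log2 fold change was −0.05, with a 95% interval of −0.39 to 0.29 and an edgeR adjusted p of 0.882. The libraries of both groups were interleaved. Sohlh2 (ENSMUSG00000027794, chromosome 3 at 55182028 to 55209957, plus strand) stood at 30.8, 30.9 and 38.0 CPM in controls and 30.3, 29.4 and 40.0 CPM in knockouts. Its log2 fold change was 0.00, with a 95% interval of −0.44 to 0.44 and an edgeR adjusted p of 0.998. Both intervals exclude a fall as large as the one fitted for Kit. They include smaller changes in either direction, and the 95% intervals given here are not adjusted for the number of genes. Both fold changes move with the scaling: by library size alone they were −0.31 for Sohlh1 and −0.27 for Sohlh2, where the median of all genes was −0.26. After a correction for gene length and GC content Sohlh1 was at −0.40 (edgeR unadjusted p 0.0207, adjusted p 0.138), just outside its interval above. Sohlh2 was at −0.21 and Kit at −0.85 (edgeR adjusted p 0.0447) in that setting, where the median of all genes was −0.01. The distance between Kit and Sohlh1 was thus smaller there.

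SOHLH proteins, like other basic helix-loop-helix factors, bind the E-box, 6 bases of the pattern CANNTG. A match to this pattern on 1 strand is also a match on the other, though the middle letters can differ. Upstream bases of 4 genes are printed because they set Kit, which fell, and Lmo1, which rose, beside the SOHLH pair, which did not pass. They come from RefSeq's promoter table (GRCm38.p6), which held 7 of the 10 listed genes, and end just before the first annotated start. Each runs 5′ to 3′ on the gene's strand, with every E-box in capitals. The windows are chr5:75574737-75574915 (plus strand) for Kit, chr2:25847249-25847498 (minus strand) for Sohlh1, chr3:55181794-55182027 (plus strand) for Sohlh2 and chr7:109175208-109175457 (minus strand) for Lmo1.
Kit: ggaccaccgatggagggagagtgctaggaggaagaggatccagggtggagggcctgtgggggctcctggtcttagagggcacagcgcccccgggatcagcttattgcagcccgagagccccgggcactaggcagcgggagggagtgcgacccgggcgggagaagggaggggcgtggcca
Sohlh1: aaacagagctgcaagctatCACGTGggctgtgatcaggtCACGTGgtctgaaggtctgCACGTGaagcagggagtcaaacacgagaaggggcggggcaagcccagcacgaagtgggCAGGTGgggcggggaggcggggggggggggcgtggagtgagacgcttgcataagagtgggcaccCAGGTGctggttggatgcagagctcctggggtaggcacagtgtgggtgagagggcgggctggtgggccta
Sohlh2: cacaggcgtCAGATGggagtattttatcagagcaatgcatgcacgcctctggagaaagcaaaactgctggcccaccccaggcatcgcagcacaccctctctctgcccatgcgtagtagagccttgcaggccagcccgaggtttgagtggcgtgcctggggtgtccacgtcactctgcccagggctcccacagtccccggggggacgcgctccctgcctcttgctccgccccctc
Lmo1: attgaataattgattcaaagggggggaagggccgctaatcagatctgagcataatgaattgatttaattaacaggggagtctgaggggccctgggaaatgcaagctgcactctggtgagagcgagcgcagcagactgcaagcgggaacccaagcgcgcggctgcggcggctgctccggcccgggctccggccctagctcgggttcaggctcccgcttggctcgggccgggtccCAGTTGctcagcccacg
In these windows Kit had 0 E-boxes in 179 bases, where 55.3% of 27025 promoters had at least 1 in a window of that length. Sohlh1 had 5 in 250 bases, of which the first 3 read CACGTG and the other 2 CAGGTG, and 1.18% of promoters had at least as many. The others had 1 each, in 234 bases for Sohlh2 (63.9% of promoters had at least 1) and in 250 bases for Lmo1 (66.0%). Among the genes not printed, Dmrtb1 had 2 and Prss50 had 0 in 250 bases. A match is a run of letters and does not show binding, and E-boxes farther from the start were not searched.

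Ratios of 2 genes within a library do not depend on how libraries are scaled, and they showed the same split. They come from the same reads and are not corrected for gene length or GC content. Reads of Kit per read of Sohlh1 were 0.585, 0.471 and 0.584 in controls and 0.260, 0.241 and 0.342 in knockouts. Per read of Sohlh2 they were 1.06, 0.914 and 0.885 in controls and 0.521, 0.454 and 0.437 in knockouts. Neither ratio overlapped between the groups, and the geometric mean was 1.96-fold and 2.02-fold lower in knockouts. Dmrt1 per Sohlh1 was 2.21 to 3.12 in controls and 1.31 to 1.68 in knockouts, again without overlap. An exact two-sided permutation test of 3 libraries against 3 cannot go below 0.1, which each of these 3 ratios reached (0.16 after Benjamini-Hochberg adjustment over the 16 ratios computed). The ratio of Kit to Dmrt1 overlapped between the groups. It was 0.187, 0.213 and 0.248 in controls and 0.199, 0.165 and 0.203 in knockouts, with an exact permutation p of 0.4 (0.492 adjusted over the 16). The ratio of Sohlh1 to Sohlh2 overlapped as well, at 1.52 to 1.94 in controls and 1.28 to 2.01 in knockouts. Ddx4, a germ cell gene, was not called but was higher in every knockout (452, 456 and 486 CPM) than in every control (315, 385 and 396 CPM), so ratios to it are lowered in knockouts. Per read of Ddx4, Dmrt1 stood at 0.550, 0.346 and 0.342 in controls and 0.176, 0.177 and 0.177 in knockouts. Sohlh1 per read of Ddx4 was also lower without overlap, although its CPM overlapped, at 0.146 to 0.176 in controls and 0.105 to 0.135 in knockouts, while Sohlh2 per read of Ddx4 overlapped. The first 2 of these reached the smallest exact p of 0.1 (0.16 adjusted), and the third gave an exact permutation p of 0.2 (0.267 adjusted).

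**Figure D2:**
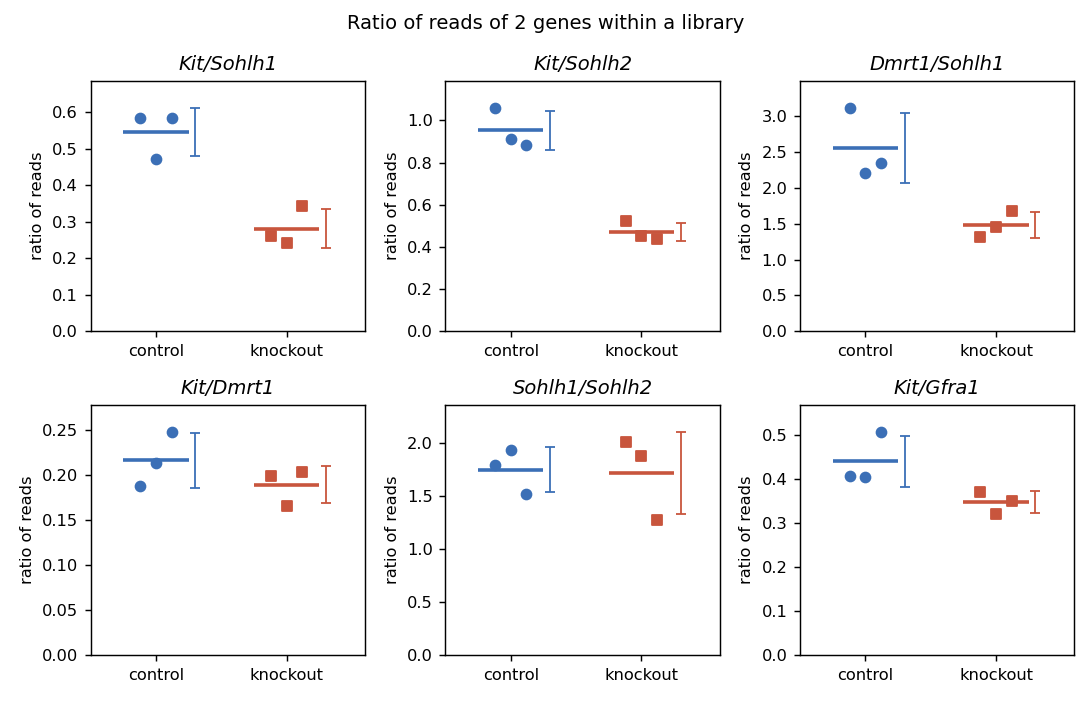
Reads of 1 gene divided by reads of another in the same library, for 6 pairs, on linear axes that start at 0. Points are libraries, horizontal lines are means and side bars are ± SD over 3 libraries. Kit/Sohlh1 lay at 0.471 to 0.585 in controls and 0.241 to 0.342 in knockouts, while Kit/Dmrt1 and Sohlh1/Sohlh2 overlapped.

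Lmo1 showed the clearest rise. It encodes a LIM-only protein, a transcription cofactor without DNA binding of its own, and lies on chromosome 7 at 109138572 to 109175207, on the minus strand (ENSMUSG00000036111). Reads numbered 22, 44 and 27 in controls and 182, 174 and 138 in knockouts. The lowest knockout was far above the highest control. The mean went from 2.78 ± 1.21 to 15 ± 2.34 CPM (SD, n = 3 per group), which is 5.41-fold higher. By edgeR the log2 fold change was 2.44 ± 0.37 (SE), with a 95% interval of 1.64 to 3.24 and an adjusted p of 0.0120. The adjusted p was 0.0805, 0.0805 and 0.0620 by edgeR without knockout 1, 2 or 3, and 0.0828 by edgeR and 0.0114 by limma-voom with the pair as 1 library. DESeq2 gave no adjusted p for Lmo1 in that setting.

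Prss50, which encodes a testis protease-like protein also called TSP50, had the largest fitted change of the 9 genes and a wide spread within each group. The gene (ENSMUSG00000048752) lies on chromosome 9 at 110857967 to 110864629, on the plus strand. It was counted at 2, 11 and 34 reads in controls, against 105, 135 and 56 in knockouts. The groups did not overlap, but control 3 was far above control 1, and knockout 3 was about 2-fold below the other knockouts. The values were 0.191, 1.04 and 2.61 CPM in controls and 9.76, 12.2 and 5.04 CPM in knockouts. The log2 fold change was 2.78 ± 0.70 (SE), with a 95% interval of 1.28 to 4.30 and an edgeR adjusted p of 0.0487, just under the threshold. Of 17 alternatives 8 ended the call, among them a correction for gene length and GC content (edgeR adjusted p 0.0621). The log2 fold change was 3.84 without control 3, where the edgeR adjusted p was 0.0330. Leaving out control 1 or 2 gave edgeR adjusted p values of 0.0504 and 0.121, and leaving out knockout 1, 2 or 3 gave 0.173, 0.207 and 0.0919. With the pair as 1 library it was 0.195 by edgeR and 0.0933 by limma-voom.

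Ly6k and Dmrtb1 were higher in every knockout library than in every control library without passing the test. Ly6k (chromosome 15 at 74796874 to 74799986, minus strand), a germ cell surface protein of the LY6 superfamily, was counted at 32, 48 and 90 reads in controls and at 98, 121 and 106 in knockouts. The log2 fold change was 1.02 ± 0.37 (SE), with a 95% interval of 0.21 to 1.84, an unadjusted p of 0.0189 and an edgeR adjusted p of 0.127. Control 3 came close to the knockouts, at 6.90 CPM against 9.11 in knockout 1. An antisense gene shares 395 exon bases with Ly6k but had 5 reads in all 6 libraries together.

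Dmrtb1 (chromosome 4 at 107676290 to 107684230, minus strand) was counted at 6, 3 and 15 reads in controls and at 20, 23 and 18 in knockouts. Both groups lay near the lower limit of what these libraries count. The log2 fold change was 1.44 ± 0.83 (SE), with a 95% interval of −0.42 to 3.34 and an edgeR adjusted p of 0.324. Sox3, an X-linked transcription factor gene of progenitors (X chromosome at 60891366 to 60893430, minus strand), was the lowest in reads. Its 6 libraries held 9, 13 and 3 control reads against 9, 11 and 3 knockout reads. Its log2 fold change was −0.13, with a 95% interval of −2.50 to 2.23 and an edgeR adjusted p of 0.959, so a change of several fold in either direction was not detectable at this depth.

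**Figure D3:**
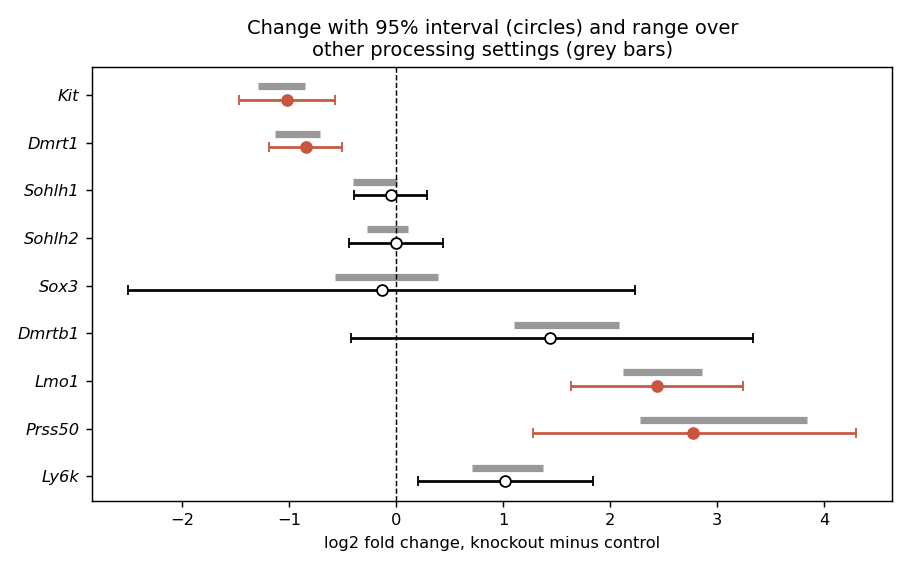
Log2 fold change of the 9 genes, knockout minus control. Circles are edgeR estimates with 95% intervals, filled red where the adjusted p was under 0.05, and grey bars span the estimates under the other settings. The bars of Kit (−1.29 to −0.85) and Dmrt1 (−1.13 to −0.71) stay below 0, those of Lmo1 (2.12 to 2.86) and Prss50 (2.28 to 3.84) stay above it, and those of Sohlh1, Sohlh2 and Sox3 reach both sides.

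The rank of the 9 genes by level, taken per length, differed between the groups. In controls, CPM per kb of merged exons ran from Dmrt1 (56.8 ± 8.70, SD, n = 3) through Sohlh1 (44.8 ± 1.78) and Sohlh2 (14.1 ± 1.75) to Ly6k (5.83 ± 2.34) and Kit (3.53 ± 0.317). Lmo1 (1.79 ± 0.778), Prss50 (0.879 ± 0.841), Sox3 (0.375 ± 0.246) and Dmrtb1 (0.321 ± 0.211) followed. Control libraries of Ly6k and Kit overlapped, as did each neighbouring pair from Lmo1 to Dmrtb1. In knockouts Sohlh1 (43.3 ± 3.80) stood above Dmrt1 (31.6 ± 1.33), and the 3 libraries of each were separate. Kit (1.74 ± 0.233) fell below both Lmo1 (9.69 ± 1.51) and Prss50 (6.19 ± 2.51), which themselves overlapped. Per kb of its longest transcript, in place of its merged exons, Kit stood at 6 in controls.

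**Figure D4:**
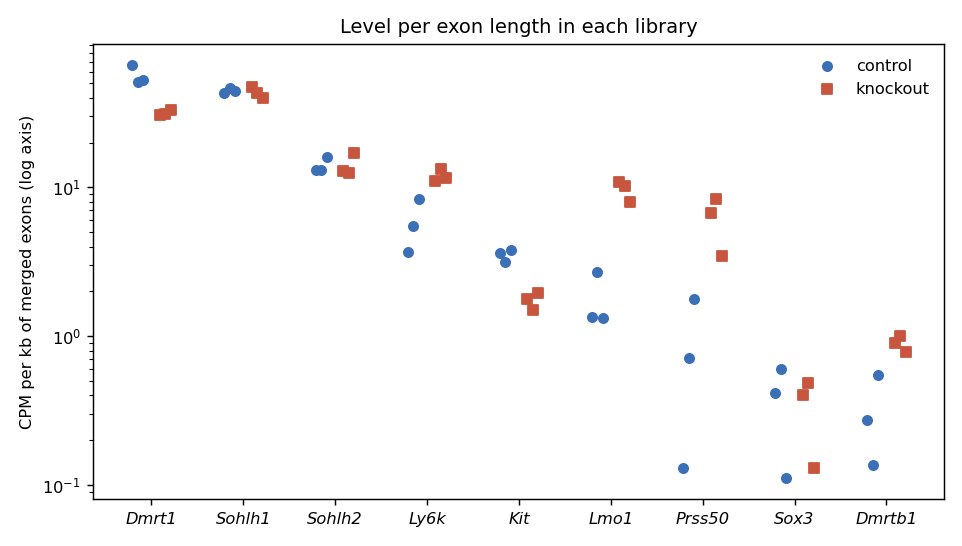
Level of the 9 genes in each library as CPM per kb of merged exons, on a log axis, ordered by the control mean. Circles are control and squares knockout libraries. In controls Kit (3.17 to 3.78) lay above Lmo1 (1.33 to 2.69), and in knockouts Kit (1.5 to 1.96) lay below Lmo1 (8 to 10.9).

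The other genes of differentiating spermatogonia that passed the edgeR test were lower, like Kit. Of 20 tested, edgeR called 0 higher and 4 lower, against 2.03% and 2.8% of all genes. By edgeR 3 were higher and 7 lower at an unadjusted p under 0.05, against 1673 and 1888 of all 14766 genes. The 3 higher were Rhox13, Tex101 and Crabp1. Their log2 fold changes were 0.8 (95% interval 0.24 to 1.37), 0.83 (0.17 to 1.49) and 0.39 (0.03 to 0.76). DESeq2 called 2 higher and 6 lower, and limma-voom 1 higher and 8 lower. Over all 14766 genes DESeq2 called 794 higher and 847 lower, and limma-voom 1152 higher and 1730 lower. Over the 20 genes the median was −0.26 on the log2 scale, against 0.01 over all genes tested. The 4 called lower by edgeR were Stra8, which responds to retinoic acid, the proliferation marker Mki67, Uhrf1, a cofactor of maintenance DNA methylation, and the zinc finger gene Bnc2. Stra8 stood at 101, 130 and 101 CPM in controls and 48.5, 46.5 and 47.1 CPM in knockouts, −1.22 ± 0.16 (SE) on the log2 scale (edgeR adjusted p 0.0101). Mki67, Uhrf1 and Bnc2 fell by 0.88, 0.77 and 0.81 on that scale. Without any 1 of the knockout libraries edgeR called none of the 4, without control 2 it called Stra8 alone (adjusted p 0.047), and without control 1 Uhrf1 and Bnc2 were at 0.054 and 0.0552. Correction for gene length and GC content ended the call of Bnc2 (edgeR adjusted p 0.0623), as did replicate number as a block (0.0553). With knockout 1 and 2 as 1 library edgeR called none of the 4, while DESeq2 and limma-voom called each but Bnc2. The ratio of Stra8 to Kit overlapped between the groups: reads of Stra8 per read of Kit were 3.11, 4.61 and 3.00 in controls and 3.07, 3.49 and 2.7 in knockouts. The exact permutation p of that ratio was 0.6 (0.686 adjusted over the 16).

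Among other genes of undifferentiated spermatogonia edgeR called 1 of 27 higher and 4 lower, against 2.03% and 2.8% of all genes, with a median log2 fold change of −0.49. By edgeR 4 were higher and 15 lower at an unadjusted p under 0.05, against 1673 and 1888 of all 14766 genes. DESeq2 called 2 higher and 7 lower, and limma-voom 3 higher and 11 lower. Over all genes DESeq2 called 794 higher and 847 lower, and limma-voom 1152 higher and 1730 lower. Utf1, a chromatin factor gene, rose from 10.4 ± 3.58 to 27.4 ± 1.90 CPM, and the transcription factor genes Foxc2 and Etv5 and the GDNF receptor genes Gfra1 and Ret fell, by 1.37, 0.65, 0.69 and 0.67 on the log2 scale. Without any 1 of the knockout libraries, without control 2, or with the pair as 1 library, edgeR called none of these 5, and without control 3 the edgeR adjusted p of Etv5 was 0.059. Correction for gene length and GC content ended the calls of Utf1, Gfra1 and Ret (edgeR adjusted p 0.0504, 0.051 and 0.0564). With replicate number as a block the edgeR adjusted p was 0.0518 for Gfra1 and 0.0502 for Ret. With the pair as 1 library DESeq2 and limma-voom called each but Gfra1 and Ret. Kit was therefore also set against Gfra1, the GDNF co-receptor gene of the stem cell state. Reads of Kit per read of Gfra1 were 0.407, 0.405 and 0.508 in controls and 0.370, 0.321 and 0.351 in knockouts. The groups did not overlap, with a 1.26-fold lower geometric mean in knockouts and an exact permutation p of 0.1 (0.16 adjusted over the 16), the smallest that 3 against 3 allows. Dmrt1 per read of Gfra1 overlapped, at 1.90 to 2.17 in controls and 1.73 to 1.94 in knockouts.

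Genes of the KIT pathway itself did not pass. Of 35 genes from the ligand gene Kitl to adaptors, RAS, PI3K, AKT and STAT members, edgeR called 0. At an unadjusted p under 0.05, 1 was higher and 10 were lower, against 1673 and 1888 of all 14766 genes. DESeq2 called 1 lower, and limma-voom called 1 higher and 6 lower, against 11.1% and 19.5% of all genes called by these tools. Their median log2 fold change was −0.21. Kitl, which is made by somatic cells, stood at 4.2, 8.73 and 14.0 CPM in controls and 8.09, 11.1 and 10.4 CPM in knockouts.

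Among helix-loop-helix partners of the SOHLH and NEUROG3 class, edgeR called 2 of 9 genes higher and 0 lower, against 2.03% and 2.8% of all genes, and 4 were higher and 2 lower at an unadjusted p under 0.05. DESeq2 called 2 higher and 1 lower, and limma-voom 4 higher and 2 lower. Over all genes 24.1% passed that unadjusted p by edgeR, and DESeq2 and limma-voom called 11.1% and 19.5%. Both genes called by edgeR were ID genes, whose products bind E proteins and keep them from DNA. Id3 went from 105, 160 and 197 CPM in controls to 388, 370 and 397 in knockouts, a change of 1.32 ± 0.22 (SE) on the log2 scale (edgeR adjusted p 0.0162). Id1 went from 70.9, 60.8 and 69.3 to 140, 136 and 102 CPM, a change of 0.91 ± 0.17 (SE) (edgeR adjusted p 0.0205). In both genes each knockout library was above each control library. Id1 lost its call when scaled by library size alone (edgeR adjusted p 0.0745) and after the correction for gene length and GC content (0.116). Without control 2 the edgeR adjusted p was 0.0633 for Id1 and 0.0539 for Id3, and without any 1 knockout neither was called. With the pair as 1 library the edgeR adjusted p was 0.0828 for Id3 and 0.132 for Id1, while DESeq2 gave 0.000138 and 0.022. The E protein gene Tcf3, named after its values were seen, stood at 39.4, 22.6 and 15.6 CPM in controls and 12.5, 10.6 and 9.18 CPM in knockouts (edgeR adjusted p 0.0567). Id4, a marker of the stem cell state also named after its values were seen, had a log2 fold change of −0.68 (edgeR adjusted p 0.104).

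**Figure D5:**
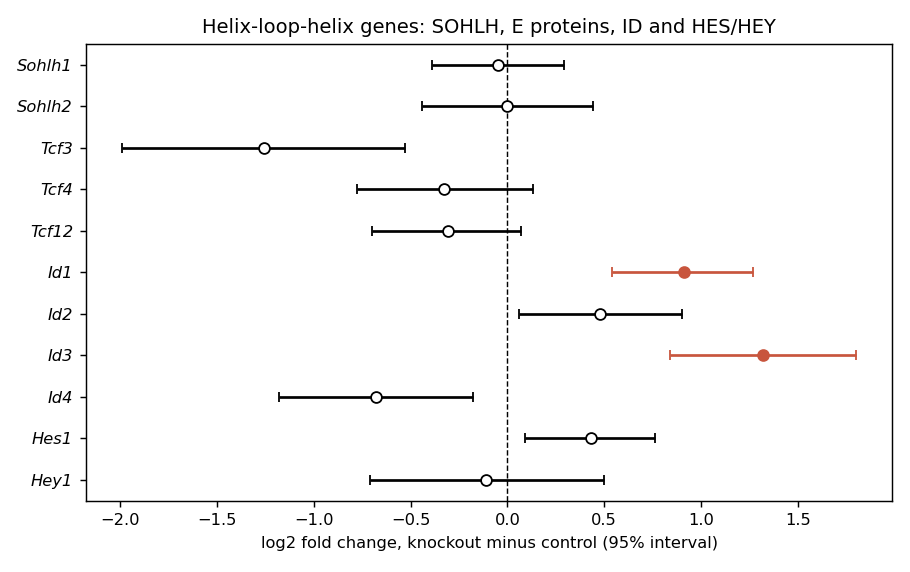
Log2 fold change, knockout minus control, of Sohlh1, Sohlh2 and the 9 other helix-loop-helix genes tested. Circles are edgeR estimates with 95% intervals, filled red where the adjusted p was under 0.05. Id3 (0.84 to 1.80) and Id1 (0.54 to 1.27) lie above 0, and the intervals of Sohlh1 and Sohlh2 include it.

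Markers of other testis cells were present and some differed between the groups. The summed level of 10 Sertoli cell markers was 36.2 to 42.4 CPM in controls and 67.5 to 73.9 CPM in knockouts, with Inha and Cldn11 called higher among 7 tested and Amh at 3 reads in controls and 4 in knockouts. Without Inha the other 9 overlapped, at 27.4 to 34.5 CPM in controls and 29 to 44.2 CPM in knockouts. Sox9 had 191 control and 116 knockout reads, while Fshr had 3 and 74 and did not overlap between the groups. Sertoli cells also express Dmrt1, and their part in its values was not tested. For 6 myoid markers the sums were 64.5 to 80.7 and 163 to 233 CPM (Acta2 and Actg2 called higher among 5), and for 9 T lymphocyte markers 55.4 to 75.7 and 87.4 to 107 CPM (Cd3g and Lck called higher among 9). Without these called genes both sums overlapped, at 5.75 to 15.9 and 13.2 to 19.9 CPM for the other 4 myoid markers and at 37.1 to 62.9 and 54.1 to 59.2 CPM for the other 7 T lymphocyte markers. For 7 endothelial markers they were 45.8 to 61.5 and 63 to 87.3 CPM, with 0 called by edgeR (2 at an unadjusted p under 0.05, and 2 each by DESeq2 and limma-voom). Leydig cell markers (35.7 to 68.5 and 48.7 to 68.1 CPM) and macrophage markers (496 to 896 and 809 to 1020 CPM) overlapped, with 0 of 7 called by edgeR in each. For Leydig cell markers 2 passed an unadjusted p under 0.05 and DESeq2 and limma-voom called 1 each, and for macrophage markers 1 passed it, with 0 called by DESeq2 and 1 by limma-voom. Over all genes 24.1% passed that unadjusted p by edgeR. The shares of all genes called were 4.83% by edgeR, 11.1% by DESeq2 and 19.5% by limma-voom. Mast cells and Leydig cells also express Kit. The 6 mast cell markers read here summed to 2.1 to 7.21 CPM in controls and 3.6 to 6.41 CPM in knockouts, and Fcer1a had 0 reads in controls and 2 in knockouts. The 9 germ cell markers summed to 3900 to 4840 and 4900 to 5420 CPM, of which Dazl, Mael and Ddx4 made up most. The other 6 summed to 574 to 655 and 507 to 586 CPM, and the median log2 fold change of the 9 was −0.46, with Mael called higher and Gfra1 lower. These sums without single markers were chosen after seeing the data, and leaving out markers called higher narrows a difference by construction. The part of other cells in the rise of Lmo1 and Prss50 was not tested. Scaling to 4 germ cell genes (Ddx4, Dazl, Dnd1 and Tex19.1) in place of TMM gave log2 fold changes of −1.22 for Kit and −1.05 for Dmrt1. Lmo1 was at 2.25 and Prss50 at 2.60, and edgeR called all 4 changed genes. In this setting edgeR called 1583 of 14766 genes (267 higher and 1316 lower), and the median of all genes was −0.19.

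The genes most like each changed gene were found by the smallest Euclidean distance between log2 CPM values centred on their mean over the 6 libraries, among tested genes at 10 CPM or more on average, leaving out predicted genes, pseudogenes and mitochondrially encoded genes. For Kit these were Nrde2 (distance 0.190), Jade3 (0.192) and Lbr, the lamin B receptor gene (0.210). For Dmrt1 they were the chromatin remodeller gene Smarca5 (0.132), Brwd1 (0.140) and Gpn3 (0.140). Lmo1 and Prss50 had no neighbour as close, but genes averaging under 10 CPM, as both did, could not be neighbours. The nearest to Lmo1 were the chemokine receptor gene Ccr8 (0.698), the histone gene Hist1h2ab (0.824) and the keratin gene Krt18 (0.858), and to Prss50 Rgs11 (1.05), Cxcr6 (1.17) and Cox4i2 (1.20). Hist1h2ab can share reads with related histone genes.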

How the data were processed

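THY1-positive spermatogonia RNA was amplified from oligo-dT primed cDNA by SMART-seq2 and sequenced as paired 150 bp reads, per the labels' protocols. SMART-seq2 adds no molecular identifiers, so PCR copies can be counted repeatedly, and it keeps no strand. The authors deposited whole-number read counts per Ensembl gene, with their sum and mean over the libraries, which were not used. Per the submitters' processing notes Trimmomatic 0.39, StringTie 2.1.7, STAR 2.7.5c, edgeR and DESeq2 were used with mm10. The sources used here do not give their roles, the annotation or the filter. Symbols, positions (mm10) and exon lengths were taken from GENCODE M21, which held 22562 of the 22579 identifiers.

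Counts were tested with edgeR 4.0.16 in R 4.3.3 (quasi-likelihood F test, robust, TMM scaling, filterByExpr, genotype as the sole term), with Benjamini-Hochberg adjustment over all 14766 genes tested. Each SE is the log2 fold change divided by the root of its F. The 95% intervals are the range of shifts that the same test would not call, unadjusted. All tests were two-sided. The procedure was tested on simulated data. Alternatives were other scalings and filters, DESeq2 1.42.0, limma-voom (limma 3.58.1), a replicate block, leaving out each library in turn, leaving out mitochondrially encoded genes, a lowess trend with length and GC content removed (span 0.3), the longest transcript as gene length, and knockout 1 and 2 as 1 library. The latter with DESeq2 or limma-voom was added after seeing the data. The genes, gene lists and tests were chosen with earlier results of these data known. Named genes were the 10 listed, called genes of each list (all if 5 or fewer, otherwise the 4 with the smallest p), the 3 genes most like each called one, and others marked as chosen later.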

Additional observations from a re-analysis of the deposited data

How the results depend on the processing

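Kit, Dmrt1, Lmo1, Prss50, Ly6k and Dmrtb1 kept their direction under every alternative that gave a value. The filter at 10 CPM left out Sox3, Dmrtb1, Prss50 and Ly6k, and DESeq2 with the pair as 1 library gave no adjusted p for these 4 or Lmo1. The number of the 9 genes called was 4, and 0 with knockout 1 and 2 as 1 library by edgeR, 2 in that setting by DESeq2, and 0 to 4 with 1 library left out (1 without control 2, 0 without any knockout). Over all genes the 713 calls became 1378 with library size scaling (226 higher and 1152 lower, against 300 and 413), 1583 scaled to germ cell genes (267 and 1316), 1641 by DESeq2, 2882 by limma-voom (1152 and 1730), 1 with the pair as 1 library by edgeR (2150 at an unadjusted p under 0.05), 465 in that setting by DESeq2, and 3 to 839 with 1 library left out (182 without control 2, of which 112 were higher, and 5, 10 and 3 without knockout 1, 2 and 3). Those 2 scalings put the median of all genes at −0.26 and −0.19 on the log2 scale, against 0.01. Other genes called in the 4 lists (KIT pathway, undifferentiated, differentiating, helix-loop-helix) numbered 11, against 23 and 27 with those scalings, 21 by DESeq2, 35 by limma-voom, 7 after removal of the length and GC trend, 0 with the pair as 1 library by edgeR, and 0 to 14 with 1 library left out (1 without control 2, 0 without any 1 knockout). The sign of 3 genes near 0 changed. Sohlh1 was at 0.01 with the filter at 10 CPM and from −0.11 to 0.01 with 1 library left out. Sohlh2 was at 0.00 with DESeq2 size factors and by DESeq2, 0.06 with the filter at 10 CPM, 0.07 with the pair as 1 library (edgeR, DESeq2 and limma-voom) and from −0.16 to 0.11 with 1 library left out. Sox3 was at 0.35 by limma-voom and from −0.57 to 0.39 with 1 library left out. The cause of these shifts was not tested. Kit stood at 3.53 CPM per kb of merged exons and 6 per kb of its longest transcript. Same-numbered libraries of the 2 groups did not deviate together (correlations of −0.004, 0.009 and 0.006), so no pairing by number was seen. With the replicate block edgeR called 683 genes, 10 in the 4 lists and the same number, 4, of the 9 genes. Depth limits Sox3, Dmrtb1 and the control level of Prss50, at 34 reads or fewer per library.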

Other observations

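Relatives of the described genes were read from the same table. Of genes of the LY6 superfamily or its region, 9 other than Ly6k were tested. In knockouts edgeR called 3 of them higher and 0 lower, against 2.03% and 2.8% of all genes. DESeq2 called 5 higher and limma-voom 4, with 0 lower in each. Over all 14766 genes DESeq2 called 794 higher and 847 lower, and limma-voom 1152 higher and 1730 lower. The 3 called by edgeR were Ly6c2, Gml and Ly6e. Their log2 fold changes were 2.59, 0.86 and 0.95, with edgeR adjusted p values of 0.0205, 0.0314 and 0.0417. With knockout 1 and 2 as 1 library those edgeR values were 0.125, 0.152 and 0.17, and Ly6e also lost its call with library size scaling (0.0695) and scaled to germ cell genes (0.0502). Correction for gene length and GC content ended the call of Gml (edgeR adjusted p 0.0695). Without control 3 the edgeR adjusted p of Gml was 0.0655, and without control 2 that of Ly6e was 0.108. Without any 1 knockout library none of the 3 was called. Tex101, whose product binds LY6K on germ cells, stood at 173, 474 and 344 CPM in controls and 574, 559 and 628 CPM in knockouts (edgeR adjusted p 0.125). Reads of Ly6k per read of Tex101 overlapped, at 0.00962 to 0.0201 in controls and 0.0152 to 0.0196 in knockouts.

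Prss45, a serine protease gene related to Prss50, was at 0 reads in every control and at 13, 17 and 9 in knockouts. With the 3 controls together set to a floor of 3 counts, and relative to total counts, Prss45 was at least 11.3-fold higher in knockouts, a bound for counting error only. It did not pass the filter on low counts and was not tested. Of the other DM-type genes besides Dmrt1 and Dmrtb1, 0 of 5 tested passed by edgeR, with 1 at an unadjusted p under 0.05, 1 called by DESeq2 and 0 by limma-voom. Of 10 LMO family genes and partners besides Lmo1, 0 passed by edgeR, with 2 at an unadjusted p under 0.05 and 1 called by each of the other tools. Over all genes 24.1% passed that unadjusted p by edgeR, and DESeq2 and limma-voom called 11.1% and 19.5%. Dmrtc2, named after its values were seen, stood at 10.6 to 11.8 CPM in controls and 15.6 to 27.4 CPM in knockouts (edgeR adjusted p 0.0862).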
